A study of Mus musculus with 7 samples.

Results

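Ribosome assembly was followed through 33 mouse genes that encode nucleolar proteins and ribosome assembly factors, taken by name from 55367 gene symbols measured in each of 7 mRNA sequencing libraries. The genes were listed by symbol, with earlier results of these data known. All 33 had at least 1 TPM, a read count scaled to gene length and to a fixed library total, in every library. The cells were G1E-ER4, mouse erythroid progenitors without working GATA1 of their own, to which a GATA1 joined to an estrogen receptor domain was added, and estradiol switches that protein on and lets them mature. DTPA cells were given 100 nM β-estradiol for 24 h together with 50 µM DTPA, a chelator of zinc and other metals, added as differentiation began (3 libraries). Control cells were given 100 nM β-estradiol alone for 24 h (3 libraries), and undifferentiated cells were taken at 0 h (1 library, with no replicate). All groups grew with fetal bovine serum, erythropoietin and medium from cells that make Kit ligand, and all come from 1 cell line. The labels call the replicates biological but do not say that they were separate cultures, so p-values measure the spread between these libraries, which may be technical. Beside this gene set, 7 lists of other ribosome pathway genes are described for context.

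Ribosomes are built in the nucleolus, where RNA polymerase I makes a long precursor of the ribosomal RNAs. Small nucleolar RNAs (snoRNAs) bound to core proteins guide its chemical modification: box C/D particles methylate ribose and box H/ACA particles turn uridine into pseudouridine. The small subunit processome folds and cuts the part that becomes the small subunit, a separate set of factors matures the large subunit, and late factors accompany the small subunit to the cytoplasm. Progenitors that divide fast make many ribosomes, and erythroid maturation is known for shrinkage of the nucleolus.

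Estimated depths were 19.79 to 21.2 M reads in the DTPA libraries, 17.68 to 18.6 M in the controls and 17.58 M at 0 h, and the members rested on an estimated 131 reads (Nop16 in control replicate 2) to 70853 reads (Ncl at 0 h). All 14 erythroid markers reached 1 TPM in at least 1 library, and their summed level was 64400 to 82500 TPM under DTPA, 55600 to 59700 TPM in controls and 13600 TPM at 0 h. Most of that sum is globin, and the markers did not move together. Under DTPA against control 9 of 14 were called lower and 3 higher (median log2 fold change -0.50), against 36.4% and 21.7% of all genes. The 3 higher were Alas2, Hbb-bs and Hbb-bt. Alas2 had 2510 to 2585 TPM under DTPA, 1892 to 2007 TPM in controls and 34.15 TPM at 0 h. Gata1 had 1177 to 1410 TPM under DTPA, 3075 to 3261 TPM in controls and 2969 TPM at 0 h. The Gata1 row may hold reads of the added GATA1, which were not told apart from those of the cells' own gene. Slc4a1, the anion exchanger of the red cell membrane, had 70.7 to 76.1, 768 to 775 and 45.6 TPM in DTPA, control and 0 h libraries. Of 8 megakaryocyte markers 5 reached 1 TPM, with sums of 42.4 to 51.5, 9.08 to 12.7 and 39.5 TPM in DTPA, control and 0 h libraries, while Gp1bb and Ppbp were listed at 0 throughout. Of 8 myeloid markers 2 reached 1 TPM, with sums of 1.23 to 2.79, 3.09 to 3.19 and 14.4 TPM in DTPA, control and 0 h libraries, and Mpo, Lyz2, Itgam and Mcpt8 were at 0. Lymphoid markers summed to 2.56 to 2.82 TPM under DTPA, 0.23 to 1.06 TPM in controls and 0.21 TPM at 0 h, with 5 of 7 at 0, Cd3e and Cd79b among them. Fibroblast and endothelial markers summed to at most 0.21 TPM in a library, with Col1a1, Col3a1 and Cdh5 at 0. The part of these differences in the results was not tested.

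Most of the 33 genes were far lower at 24 h than at 0 h. Together the 33 made up 0.195% to 0.213% of all TPM under DTPA, 0.232% to 0.235% in controls and 1.01% at 0 h. Their summed level was 2041 ± 86.4 TPM under DTPA and 2341 ± 14.6 TPM in controls (SD, n = 3 each), against 10130 TPM at 0 h, which puts DTPA cells at 20.1% and control cells at 23.1% of the 0 h level. In bulk RNA, a loss of cells of one kind and a lower RNA level per cell cannot be told apart. With both abundant proteins Npm1 and Ncl left out, the sums were 1390 TPM under DTPA, 1660 TPM in controls and 6227 TPM at 0 h.

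Between controls and 0 h, 31 of 33 genes (93.9%) were called lower in the limma fit of all 7 libraries, against 24.3% of the 11906 genes tested, and 0 members were called higher, against 15.1% of all genes (39.4% in either direction). At an unadjusted p under 0.05 and with no minimum fold, limma gave 32 members lower and 1, Nop10, higher, in this comparison and in that of DTPA with 0 h. A call needed a Benjamini-Hochberg adjusted p under 0.05 and a change of at least 2-fold. The members' median log2 fold change of TPM + 1 was -2.70, beside -0.22 over all tested genes. Between DTPA and 0 h, 32 of 33 genes (97%) were called lower, against 27.6% of 12016 genes tested, and 0 were called higher, against 15.7% (43.3% of all genes in either direction), with medians of -2.82 for the members and -0.30 for all genes. The DTPA mean lay under 10% of the 0 h value in 11 genes, under 20% in 26 and under 50% in 32. The control mean lay under 10% of the 0 h value in 8 genes, under 20% in 24 and under 50% in 31. With Nop10 as the exception, in 32 of 33 genes every 24 h library was below the 0 h library. These comparisons share the 0 h library, which was assumed to vary like the others. No library was taken at 24 h without estradiol, so maturation and 24 h of culture cannot be told apart.

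**Figure D1:**
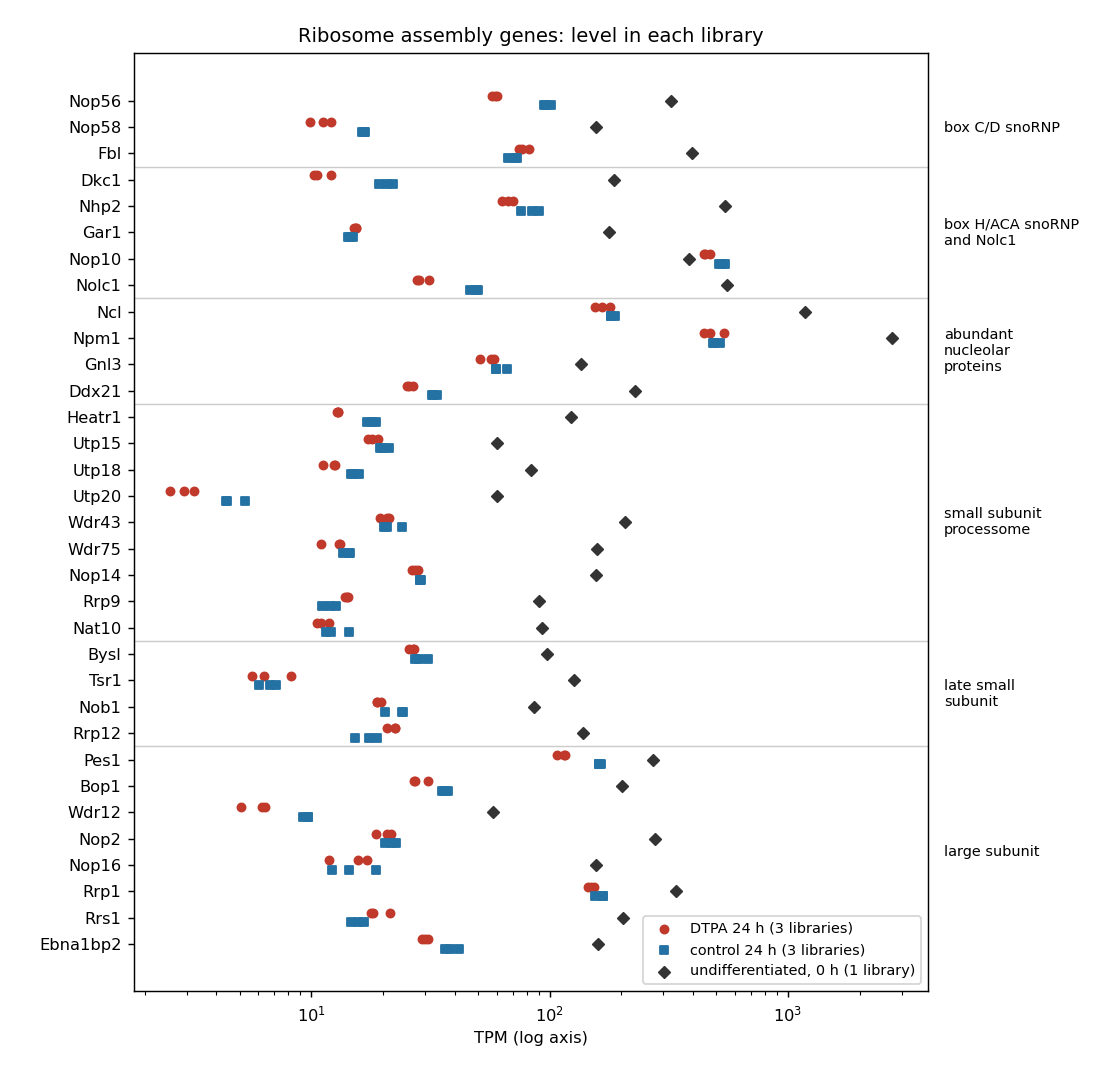
Level of each of the 33 genes in every library, in TPM on a log axis, grouped by role: red circles are the 3 DTPA libraries, blue squares the 3 controls and black diamonds the 0 h library. In 32 genes the 0 h library stands to the right of all 24 h libraries, and in Nop10 it stands to the left.

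Nop10, the smallest protein of the box H/ACA particle, was the exception. It stood at 471, 443 and 448 TPM under DTPA and 546, 528 and 514 TPM in controls, against 385 TPM at 0 h, so that every 24 h library was above the 0 h library. Its log2 fold change was 0.24 for DTPA over 0 h (limma, adjusted p = 0.00729) and 0.46 for control over 0 h (adjusted p = 0.000417), short of 2-fold in both. As the other genes fell, Nop10 came to hold 21.9% to 22.7% of the summed TPM under DTPA and 21.8% to 23.2% in controls, against 3.8% at 0 h. The other gene not called in controls was Pes1, a scaffold of large subunit assembly, at 60.0% of its 0 h level (log2 fold change -0.73, limma adjusted p = 4.47e-05, under 2-fold).

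Tsr1, a factor of late small subunit maturation, had the largest fall in controls on this scale. It had 8.23, 5.63 and 6.35 TPM under DTPA and 6.69, 6.03 and 7.13 TPM in controls, against 127 TPM at 0 h. The log2 fold change was -4.07 for control over 0 h (limma, SE 0.193, adjusted p = 9.84e-06), a mean at 5.22% of the 0 h level. On the same log2(TPM + 1) scale, the largest fall for DTPA over 0 h was that of Nolc1, at -4.21 (limma, SE 0.078, adjusted p = 3.63e-07). As a share of the 0 h TPM, Utp20 was lower under DTPA, at 4.81%, than Nolc1, at 5.24%. The DTPA and control libraries of Tsr1 overlap, and 1240 of its 3837 exon bases lie opposite exons of Srr, whose reads can be kept apart only if strand was used in counting. Npm1 (nucleophosmin), the most abundant member at 0 h, had 540, 444 and 471 TPM under DTPA and 486, 487 and 521 TPM in controls, against 2727 TPM at 0 h. It ranked 234 to 275 among all symbols under DTPA and 264 to 288 in controls, against rank 27 at 0 h.

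By role, the median log2 fold change of control over 0 h was -3.11 for the 5 box H/ACA genes with Nolc1, -2.78 for the 9 small subunit processome genes, -2.57 for the 4 abundant nucleolar proteins, -2.48 for the 3 box C/D genes, -2.45 for the 8 large subunit genes and -2.40 for the 4 late small subunit genes. These groups are small and no test of their order was made. Within a role the values ran wide: among large subunit genes, control over 0 h was -3.61 for Nop2, an rRNA cytosine methyltransferase, -3.61 for Rrs1 and -1.06 for Rrp1.

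**Figure D2:**
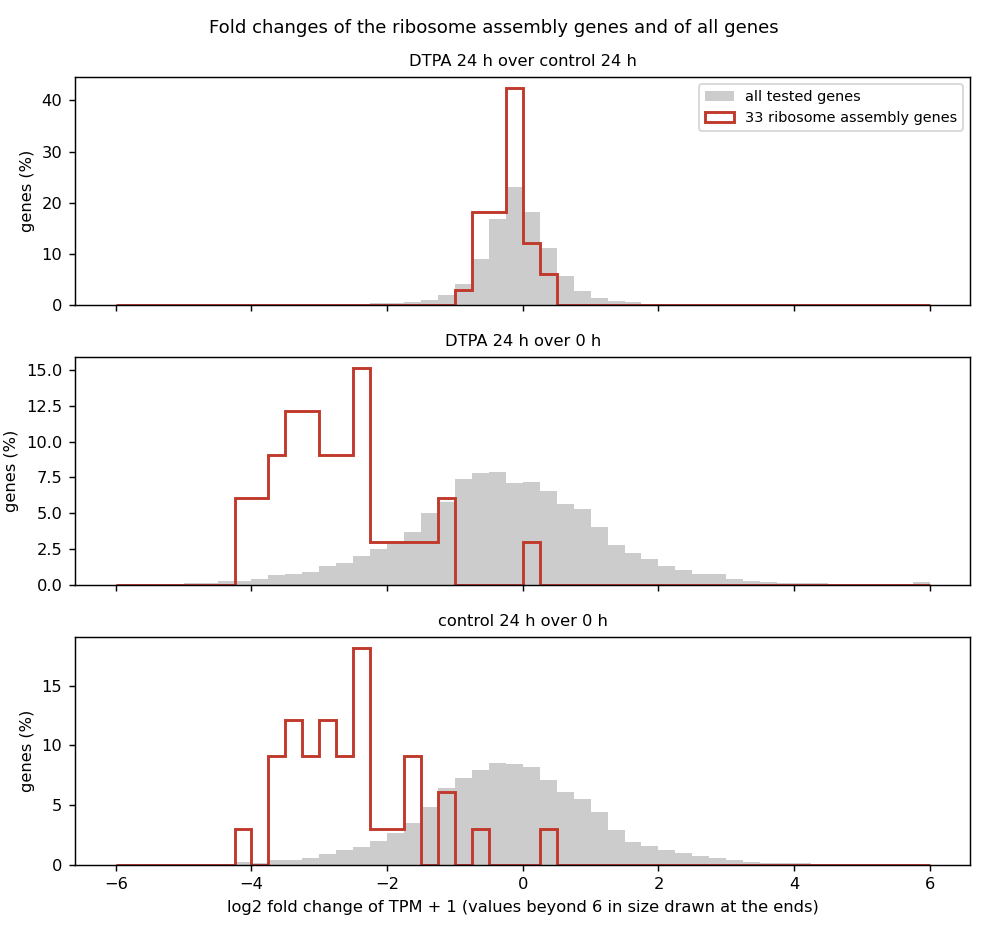
Share of genes (%) by log2 fold change of TPM + 1 for the 33 genes (red outline) and all tested genes (grey) in DTPA over control, DTPA over 0 h and control over 0 h. Against 0 h the genes' medians are -2.82 under DTPA and -2.70 in controls, while in DTPA over control their median is -0.17, beside -0.09 for all genes.

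Because the genes moved together, the DNA around their starts was read for letters they share. Of the 33 genes, 28 matched RefSeq windows (build GRCm38.p6) that run 250 bases before to 50 bases after a start. The hexamer CACGTG, which reads the same on both strands and is the core of the E-box that MYC and related proteins bind, stood in the windows of 6 of 28 members (21.4%) and of 8.09% of 27025 genes with a window. AGATAA, a form of the site that GATA factors bind, stood on either strand in 0 of 28 members and in 12.7% of all genes. The median GC content was 57.7% in the members' windows and 52.7% in all windows. The genes compared were all those with a window, not matched to the members for GC content or expression. A match is a description of these letters, and no binding was measured. The windows around each CACGTG are shown because they are all the matches found among the members, 5′ to 3′ on the gene's strand with the hexamer in capitals.
Nop2 (chr6:125131811-125131840, plus strand): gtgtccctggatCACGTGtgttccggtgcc
Utp18 (chr11:93885769-93885798, minus strand): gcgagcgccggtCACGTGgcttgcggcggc
Pes1 (chr11:3963965-3963994, plus strand): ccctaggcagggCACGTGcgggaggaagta
Wdr43 (chr17:71616220-71616249, plus strand): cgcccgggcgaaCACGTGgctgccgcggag
Tsr1 (chr11:74898092-74898121, plus strand): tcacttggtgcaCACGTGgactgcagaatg
Utp20 (chr10:88826765-88826789, minus strand): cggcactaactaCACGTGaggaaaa

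In Nop2 and Utp18 the hexamer begins 60 and 20 bases before the RefSeq start. In Pes1, Wdr43, Tsr1 and Utp20 it begins 2, 17, 24 and 37 bases after it. The GENCODE M21 annotation begins the Wdr43 gene further upstream, at chr17:71615895. In 25 of the members' 30 windows, the stretch checked after the start lay in a GENCODE transcript of the gene. The 6 genes span most of the range of the fall: control over 0 h was -4.07 in Tsr1 and -0.73 in Pes1, with a median of -3.32, beside a median of -2.69 in the 22 genes whose windows lack it. Under DTPA against control the median was -0.20 in both sets, with 3 of 6 and 12 of 22 called lower, against 36.4% of all genes. The 250 bases before the starts of Nop2 and Nop10 are shown as the contrast between a gene that fell to 7.84% of its 0 h level in controls and the 1 gene that stood above it. The CACGTG of Nop2 is in capitals, and the window of Nop10 has none.
Nop2 (chr6:125131633-125131882, plus strand): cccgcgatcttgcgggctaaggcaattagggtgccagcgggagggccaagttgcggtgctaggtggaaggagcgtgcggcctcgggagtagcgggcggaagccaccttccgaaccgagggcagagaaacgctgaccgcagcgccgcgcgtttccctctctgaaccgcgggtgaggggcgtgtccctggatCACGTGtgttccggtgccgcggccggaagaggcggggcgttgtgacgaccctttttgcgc
Nop10 (chr2:112261676-112261925, plus strand): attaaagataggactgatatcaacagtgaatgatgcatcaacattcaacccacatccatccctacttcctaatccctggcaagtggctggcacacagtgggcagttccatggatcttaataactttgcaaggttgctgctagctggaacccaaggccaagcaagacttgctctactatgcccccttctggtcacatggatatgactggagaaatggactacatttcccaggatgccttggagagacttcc

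The GC content of these stretches is 67.6% in Nop2 and 47.2% in Nop10. The contrast does not hold for Nop58, which fell to 10.6% of its 0 h level in controls. Its stretch has no CACGTG either, and its GC content is 41.2%.

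Members differed far less between DTPA and control than between 24 h and 0 h, and they did not move as one. In the limma fit of the 6 libraries at 24 h, 16 of 33 genes (48.5%) were called lower under DTPA than in controls, against 36.4% of 11147 genes tested. There were 3 genes (9.09%) called higher, against 21.7% of all genes, and 14 not called; over all genes 58.1% were called in either direction. The median log2 fold change was -0.17 for the members and -0.09 for all genes, and the summed level under DTPA was 87.2% of that in controls. All DTPA libraries lay below all controls in 22 genes (66.7%), against 40.3% of all genes, and above them in 5 genes (15.2%), against 24.7%. In the other 6 genes (Npm1, Wdr43, Nat10, Tsr1, Nop2 and Nop16) the libraries overlapped. Under DTPA the globins held 6.27% to 8.12% of the TPM, against 4.71% to 5.11% in controls. Cytosolic ribosomal protein genes held 10.3% to 10.7% under DTPA, against 7.56% to 8.09% in controls. Scaling by median-of-ratios size factors moved the median of all genes to 0.01. It gave 12 members lower, against 28.7% of 11160 genes tested, and 5 higher, against 28.3%, and it left the members' median 0.08 below that of all genes, as before. Higher calls were 37.3% of all calls as deposited, 49.6% under size factors and 50.6% under quantile normalization.

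**Figure D3:**
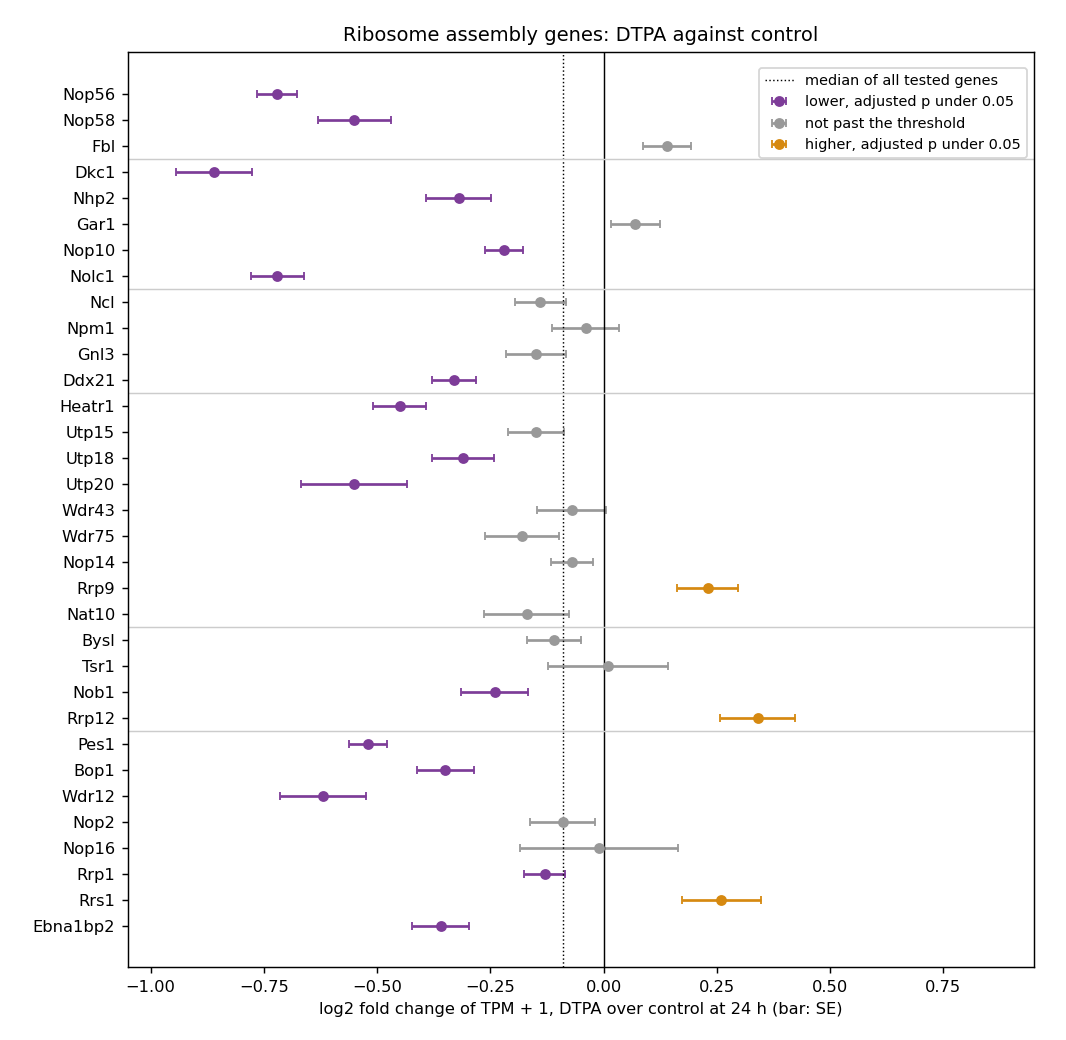
Log2 fold change of TPM + 1 for DTPA over control at 24 h in each of the 33 genes, with its SE from limma; violet is lower, orange higher and grey not past an adjusted p of 0.05. The dotted line marks the median of all tested genes, -0.09, and the lowest and highest members are Dkc1 at -0.86 and Rrp12 at 0.34.

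Among the box C/D proteins, the paired scaffold proteins Nop56 and Nop58 fell under DTPA, and the methyltransferase Fbl (fibrillarin) was not called. That makes 2 of 3 genes lower, against 36.4% of all genes, and a median log2 fold change of -0.55. Nop56 (chr2:130274430-130279313 in GENCODE M21, GRCm38) had 57.4, 59.9 and 59.0 TPM under DTPA and 96.8, 94.5 and 102 TPM in controls, against 323 TPM at 0 h. Every DTPA library was below every control, and the log2 fold change of DTPA over control was -0.72 (SE 0.044, limma adjusted p = 7.68e-06). Nop58 (chr1:59684971-59719044) had 12.1, 9.83 and 11.2 TPM under DTPA and 16.3, 16.6 and 16.9 TPM in controls, against 156 TPM at 0 h. Its groups did not overlap either, and DTPA over control stood at -0.55 on the log2 scale (SE 0.081, limma adjusted p = 0.000759). Fbl (chr7:28169710-28179269) had 74.7, 76.3 and 81.5 TPM under DTPA and 71.5, 72.8 and 66.7 TPM in controls, against 397 TPM at 0 h. All DTPA libraries of Fbl stood above the controls, but the log2 fold change of 0.14 did not pass the threshold (SE 0.053, limma adjusted p = 0.0565). Fbl was called higher in 5 of 18 settings, all 3 other scalings among them, with adjusted p between 0.00242 and 0.181 over all settings.

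In the box H/ACA group with Nolc1, 4 of 5 genes were called lower under DTPA, against 36.4% of all genes, with a median of -0.32. Dkc1 (dyskerin, chrX:75095854-75109777), the pseudouridine synthase that also belongs to telomerase, had the largest change among the members under DTPA. It had 12.1, 10.2 and 10.6 TPM under DTPA and 19.2, 20.8 and 22.1 TPM in controls, against 185 TPM at 0 h. The groups were well apart, DTPA over control standing at -0.86 on the log2 scale (SE 0.084, limma adjusted p = 8.64e-05). Gar1 (chr3:129824912-129831396), a partner of Dkc1 in the finished particle, had 15.2, 15.3 and 15.4 TPM under DTPA and 14.2, 14.5 and 15.0 TPM in controls, against 178 TPM at 0 h. Its DTPA libraries lay just above the controls, at a log2 fold change of 0.07 (limma adjusted p = 0.337), which was called higher under size factors (0.17) and quantile normalization (0.19). Nhp2, another core protein, averaged 66.6 ± 3.49 TPM under DTPA and 83.6 ± 7.2 TPM in controls (SD, n = 3 each), against 545 TPM at 0 h. It was called lower at -0.32 (limma adjusted p = 0.00582) and Nop10 at -0.22 (adjusted p = 0.00259), and both calls were lost under the same 2 scalings, at -0.21 and -0.17 for Nhp2 and -0.11 and -0.09 for Nop10. Nolc1 (chr19:46075863-46085530), a chaperone of snoRNA particles, had 27.6, 28.4 and 31.2 TPM under DTPA and 49.0, 49.8 and 46.5 TPM in controls, against 555 TPM at 0 h. It was lower in every DTPA library, at -0.72 on the log2 scale (SE 0.059, limma adjusted p = 3.62e-05).

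Ratios between transcripts whose proteins work together show these differences within each library. The 9 ratios were chosen after the values were seen and carry no test. A ratio within a library does not depend on the library's total. Fbl over Nop56 was 1.32 ± 0.0568 under DTPA and 0.721 ± 0.0593 in controls (SD, n = 3 each), against 1.23 at 0 h. Gar1 over Dkc1 was 1.40 ± 0.132 under DTPA and 0.705 ± 0.0332 in controls, against 0.961 at 0 h. In both pairs the DTPA libraries stood above the controls without overlap and above the 0 h library. Nop10 over Dkc1 was 41.5 ± 2.33 under DTPA and 25.7 ± 2.64 in controls, against 2.08 at 0 h, a ratio that differed far more between 24 h and 0 h than between the 24 h groups. Nop56 over Nop58 overlapped between the groups, at 5.37 ± 0.687 under DTPA and 5.89 ± 0.176 in controls, against 2.06 at 0 h. Fbl over Nop58 (7.07 under DTPA, 4.25 in controls and 2.54 at 0 h) and Nhp2 over Dkc1 (6.08, 4.07 and 2.94) were also higher in every DTPA library than in any control.

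**Figure D4:**
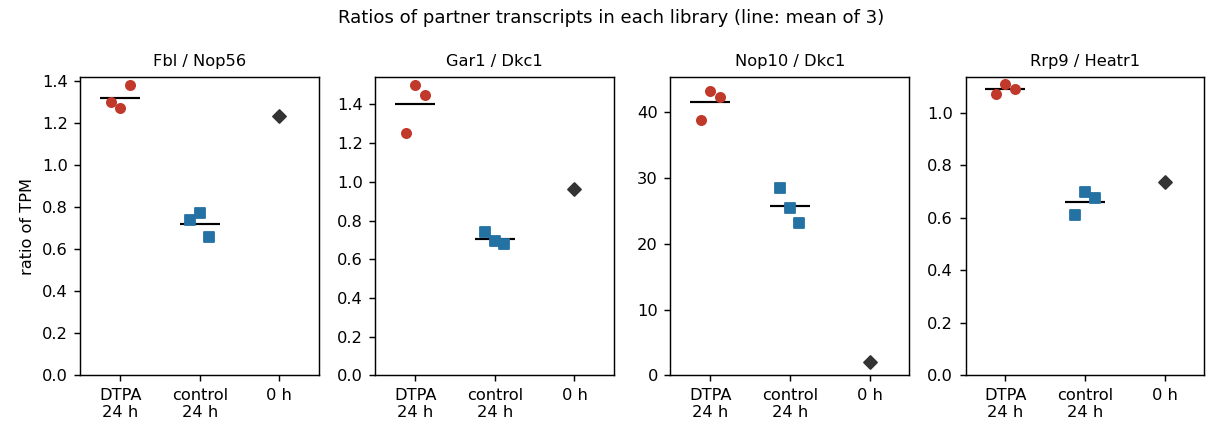
Ratio of TPM between partner genes in each library for Fbl over Nop56, Gar1 over Dkc1, Nop10 over Dkc1 and Rrp9 over Heatr1, with a line at the mean of 3. The DTPA libraries (red circles) lie above the controls (blue squares) in all 4 ratios, and Nop10 over Dkc1 is lowest at 0 h (black diamond), at 2.08.

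Of the abundant nucleolar proteins, 1 of 4 was called lower under DTPA (median -0.15), against 36.4% of all genes. Ddx21 (chr10:62580251-62602281), an RNA helicase of the nucleolus, had 25.2, 25.7 and 26.6 TPM under DTPA and 32.2, 32.5 and 33.7 TPM in controls, against 228 TPM at 0 h. The groups did not overlap, and DTPA over control stood at -0.33 (SE 0.048, limma adjusted p = 0.000704). Ncl (nucleolin) had 179, 155 and 165 TPM under DTPA and 180.4, 180.1 and 188 TPM in controls, against 1177 TPM at 0 h, and its difference at 24 h did not pass (-0.14, limma adjusted p = 0.0671), though it did without DTPA replicate 1 (-0.19, limma adjusted p = 0.0105). Gnl3 (nucleostemin, a GTP-binding protein) averaged 55.4 ± 3.71 TPM under DTPA and 61.7 ± 3.69 TPM in controls (SD, n = 3 each), against 135 TPM at 0 h, and did not pass either (-0.15, limma adjusted p = 0.0784). Npm1 was at -0.04 (limma adjusted p = 0.645). Processed pseudogenes near-identical to Npm1 also carry reads: Gm14681, Gm6477 and Gm9118 had 64.0 to 105 TPM in DTPA libraries, 68.1 to 102 TPM in controls and 413 to 472 TPM at 0 h, and adding the pseudogene copies left Npm1 at -0.05 (limma adjusted p = 0.585).

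In the small subunit processome, 3 of 9 genes were called lower under DTPA and 1 higher (median -0.17), a lower share close to the 36.4% of all genes. Heatr1 (chr13:12395027-12440289), which also takes part in RNA polymerase I transcription, had 12.94, 12.91 and 12.87 TPM under DTPA and 18.1, 17.2 and 18.8 TPM in controls, against 123 TPM at 0 h. Utp20 (chr10:88746607-88826804), a large scaffold protein and the member with the lowest level at 24 h, had 3.22, 2.56 and 2.91 TPM under DTPA and 4.45, 4.40 and 5.28 TPM in controls, against 60.2 TPM at 0 h. Both genes were lower in every DTPA library than in any control, at -0.45 for Heatr1 (SE 0.058, limma adjusted p = 0.000381) and -0.55 for Utp20 (SE 0.117, limma adjusted p = 0.0049). Utp18 averaged 12.1 ± 0.742 TPM under DTPA and 15.2 ± 0.564 TPM in controls (SD, n = 3 each), against 83.4 TPM at 0 h, and was lower at -0.31 (limma adjusted p = 0.00578). Rrp9 (chr9:106475963-106485424), the protein specific to the U3 snoRNA particle, went the other way. It had 13.9, 14.3 and 14.1 TPM under DTPA and 11.1, 11.98 and 12.7 TPM in controls, against 90.1 TPM at 0 h. It was higher in every DTPA library, at 0.23 (SE 0.067, limma adjusted p = 0.0213), but the call was lost without DTPA replicate 2, DTPA replicate 3 or control replicate 1 (adjusted p = 0.0641, 0.0583 and 0.0798 in limma). Rrp9 over Heatr1 was 1.09 ± 0.0163 under DTPA and 0.662 ± 0.0446 in controls (SD, n = 3 each), against 0.734 at 0 h. The other 5 genes did not pass: Utp15 at -0.15, Wdr43 at -0.07, Wdr75 at -0.18, Nop14 at -0.07 and Nat10, which acetylates cytidines of the small subunit RNA, at -0.17. Their means ran from 11.1 (Nat10) to 27.3 TPM (Nop14) under DTPA and from 12.7 (Nat10) to 28.6 TPM (Nop14) in controls, against 59.9 (Utp15) to 208 TPM (Wdr43) at 0 h.

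Of the 4 late small subunit factors (median -0.05), Rrp12 was higher and Nob1 lower, against 21.7% higher and 36.4% lower over all genes. Rrp12 (chr19:41862851-41896173), known from yeast as an export factor, had 20.8, 22.5 and 22.5 TPM under DTPA and 19.0, 15.3 and 17.4 TPM in controls, against 138 TPM at 0 h. All DTPA libraries stood above the controls, at 0.34 over control (SE 0.083, limma adjusted p = 0.00948), and Rrp12 was the 1 member called higher in all 18 settings. Nob1, the nuclease that trims the end of the small subunit RNA, averaged 19.2 ± 0.439 TPM under DTPA and 22.9 ± 2.14 TPM in controls (SD, n = 3 each), against 86.0 TPM at 0 h. It was lower at -0.24 (limma adjusted p = 0.0247), a call made in 11 of 18 settings and lost, at adjusted p of 0.059 to 0.0824, without DTPA replicate 1 or 3 or control replicate 1 or 2. Under size factors Nob1 was at -0.14 (limma adjusted p = 0.198) and under quantile normalization at -0.11 (limma adjusted p = 0.291). Tsr1 stood at 0.01 and Bysl, a factor bound to small subunit precursors, at -0.11. Neither passed. Bysl averaged 26.5 ± 0.669 TPM under DTPA and 28.8 ± 1.88 TPM in controls (SD, n = 3 each), against 97.2 TPM at 0 h, and shares 361 exon bases with Ccnd3.

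In the large subunit group, 5 of 8 genes were called lower under DTPA and 1 higher (median -0.24), against 36.4% lower and 21.7% higher over all genes. Pes1, Bop1 and Wdr12, whose proteins form the PeBoW complex, were all lower. Pes1 (chr11:3963975-3980004) had 115, 108 and 116 TPM under DTPA and 161.1, 161.0 and 165 TPM in controls, against 270.4 TPM at 0 h. Its groups did not overlap, and DTPA over control stood at -0.52 (SE 0.042, limma adjusted p = 3.15e-05). Bop1 (chr15:76452989-76477277) had 27.1, 27.2 and 30.9 TPM under DTPA and 35.4, 37.4 and 36.5 TPM in controls, against 200.2 TPM at 0 h. Wdr12 (chr1:60069785-60098645) had 6.42, 5.08 and 6.19 TPM under DTPA and 9.70, 9.24 and 9.70 TPM in controls, against 57.8 TPM at 0 h. Neither gene's groups overlapped, at -0.35 for Bop1 (SE 0.063, limma adjusted p = 0.00208) and -0.62 for Wdr12 (SE 0.095, limma adjusted p = 0.000967). Bop1 over Pes1 was 0.252 under DTPA and 0.224 in controls, against 0.741 at 0 h, and Wdr12 over Pes1 was 0.0522 under DTPA and 0.0588 in controls, against 0.214 at 0 h. Within the complex, Pes1 transcripts thus stood much higher relative to both partners at 24 h than at 0 h.

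Ebna1bp2 (chr4:118620799-118627776), a nucleolar scaffold known from yeast to act in large subunit assembly, had 31.0, 29.0 and 29.9 TPM under DTPA and 38.3, 41.7 and 36.3 TPM in controls, against 159 TPM at 0 h. Its groups did not overlap, and DTPA over control stood at -0.36 (SE 0.062, limma adjusted p = 0.00165). Rrs1 (chr1:9545408-9547455), a large subunit factor known from yeast, was higher, with 17.8, 18.1 and 21.5 TPM under DTPA and 16.7, 15.7 and 14.7 TPM in controls, against 202 TPM at 0 h. The groups were close but did not overlap, at 0.26 (SE 0.087, limma adjusted p = 0.0326), and the call was lost without DTPA replicate 3 (0.18), control replicate 2 (0.27) or control replicate 3 (0.22). Adding the pseudogene Gm21168 to Rrs1 gave 0.28 (limma adjusted p = 0.0213). Rrp1 averaged 149 ± 4.25 TPM under DTPA and 163 ± 6.97 TPM in controls (SD, n = 3 each), against 339 TPM at 0 h. It was called lower at -0.13 (limma adjusted p = 0.0431) in 7 of 18 settings, and leaving out any 1 library but control replicate 3 ended the call, at adjusted p of 0.057 to 0.141. Nop2 (20.3 ± 1.53 TPM under DTPA and 21.6 ± 1.15 TPM in controls, against 276 TPM at 0 h) stood at -0.09 and did not pass. Nop16 (14.9 ± 2.74 TPM under DTPA and 15.1 ± 3.33 TPM in controls, against 156 TPM at 0 h) did not pass either, at -0.01.

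The calls that held were mostly the larger ones. Nop56, Nop58, Dkc1, Nolc1, Ddx21, Heatr1, Utp18, Utp20, Pes1, Bop1, Wdr12 and Ebna1bp2 (12 genes) were lower in every setting in which they were tested, which was all 18 except for Utp20, not tested at a minimum of 5 TPM. Nop56 also has a processed pseudogene, Gm27219, with 8.31 to 9.30 TPM under DTPA and 14.4 to 16.6 TPM in controls, against 39.2 TPM at 0 h, and with the copies added Nop56 was at -0.74 (limma adjusted p = 5e-06).

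Several genes for ribosome assembly factors are known to carry snoRNAs in their introns, so that they give rise to guide RNAs as well. In GENCODE M21, snoRNA genes lay within the bounds and on the strand of 7 of 33 members (21.2%), against 1.27% of 21951 protein-coding genes. Nop56 holds 5 snoRNA genes, Snord57 and Snord110 among them, Nop58 holds 4, Ncl, Gnl3 and Wdr43 hold 3 each, Tsr1 holds 2 and Dkc1 holds 1. Under DTPA, 3 of the 7 hosts and 13 of the other 26 members were lower, against 36.4% of all genes, with medians of -0.15 in hosts and -0.18 in the others. For control over 0 h the medians were -3.11 in hosts and -2.59 in the others. These libraries select polyadenylated RNA, and the snoRNAs themselves were not analysed here.

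Other genes of the pathway were counted in the same fits, with no test of any list. Over all tested genes 36.4% were lower and 21.7% higher under DTPA. Under size factors 28.7% of all genes were lower and 28.3% higher, and under quantile normalization 27.9% and 28.6%. Of 39 other small subunit factors, 22 were lower and 2 higher under DTPA (median -0.26), and the lower count was 14 under size factors and under quantile normalization. Those with the largest changes were Utp6 (-0.79), Ngdn (-0.71), Emg1 (-0.64), a methyltransferase of the small subunit RNA, and Pno1 (-0.64), a partner of Nob1. Of 42 other large subunit factors, 18 were lower and 3 higher (median -0.15), with 11 lower and 7 higher under quantile normalization. Ftsj3 had 47.2, 43.1 and 46.3 TPM under DTPA and 94.4, 94.4 and 103 TPM in controls, against 161 TPM at 0 h, and was lower at -1.08 (limma adjusted p = 3.06e-06). Las1l (-0.85), a nuclease factor, Nmd3 (-0.77), the export adaptor of the large subunit, and Rrp15 (-0.66) came next.

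RNA polymerase I and its factors numbered 16 tested genes, with 5 lower (31.2%) and 2 higher (12.5%) under DTPA and a median of -0.11, near the 36.4% and the -0.09 of all genes. The list as a whole did not stand out by its lower count, and its named genes are the 4 with the largest changes. Ubtf, the factor that binds ribosomal DNA promoters and keeps them open, had 26.1, 25.7 and 26.6 TPM under DTPA and 63.7, 65.9 and 65.1 TPM in controls, against 174 TPM at 0 h. Its groups lay far apart, and its log2 fold change of -1.28 (limma adjusted p = 3.86e-07) was larger in size than that of any of the 33 members. Tcof1 (-0.73), which supports ribosomal DNA transcription, the catalytic core subunit Polr1b (-0.70) and the initiation factor Rrn3 (-0.42) were also lower. Of 14 tested genes of the RNA exosome and pre-rRNA nucleases, 12 were lower and 0 higher by limma (median -0.43), with 0 higher at an unadjusted p under 0.05 as well. Under size factors 8 were lower and 1 higher, against 28.7% and 28.3% of all genes. The largest changes were in Exosc8 (-0.94), Mphosph6 (-0.79), Exosc2 (-0.65) and C1d (-0.64).

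Most ribosomal protein genes, which encode the parts of the ribosome itself, were higher under DTPA. Of 81 cytosolic ribosomal protein genes, 69 were higher (85.2%, against 21.7% of all genes) and 1 lower (median 0.43). Under the other scalings 62 to 72 were higher, against 23.2% to 28.6% of all genes. Rps6 had 2948, 2679.7 and 2804 TPM under DTPA and 1619, 1663 and 1671 TPM in controls, against 2722 TPM at 0 h, and was higher at 0.77 (limma adjusted p = 6.9e-06). Rps15a (0.75) and Rpl13a (0.73) were also higher. Of 10 tested snoRNA host genes outside the 33, which are mostly noncoding, 5 were higher and 0 lower by limma (median 0.41), with 1 lower at an unadjusted p under 0.05. The other 5 were not called, and 4 of the 10 had negative values, down to -0.35. Epb41l4aos (1.14), Zfas1 (1.13), Gas5 (0.82) and Snhg1 (0.78) had the largest changes among those called. Near-identical copies are common among ribosomal protein genes, and reads may be split between them.

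**Figure D5:**
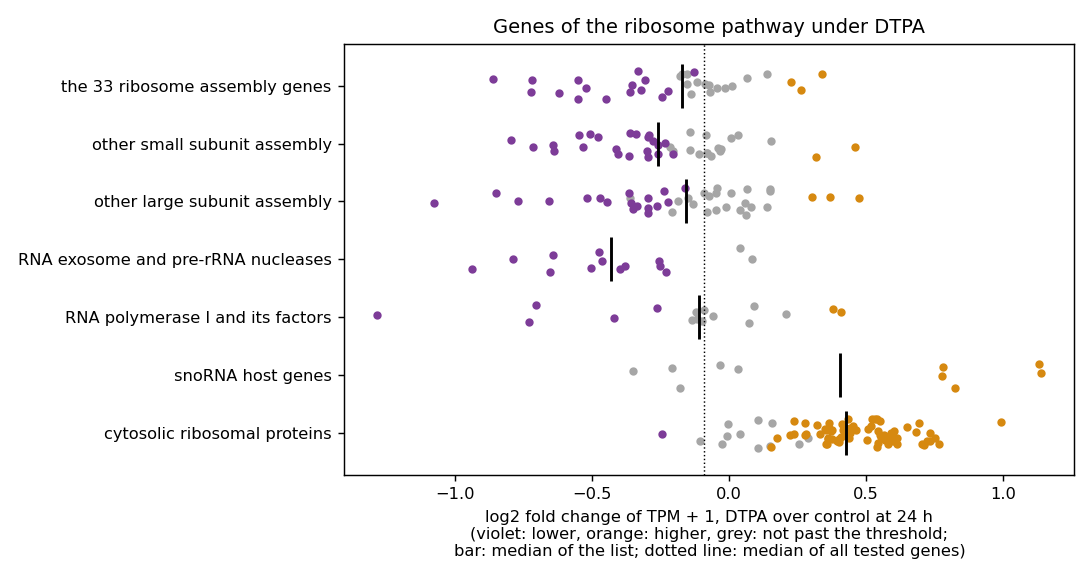
Log2 fold change of TPM + 1 for DTPA over control at 24 h, 1 point per gene, for the 33 genes and 6 of the 7 other lists of the pathway; violet is lower, orange higher and grey not past an adjusted p of 0.05, and bars are list medians. The exosome list has the lowest median, -0.43, and the ribosomal proteins the highest, 0.43, while the 33 genes lie at -0.17.

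The same lists were counted against 0 h. For control over 0 h, where 24.3% of all genes were lower and 15.1% higher, 28 of 39 other small subunit factors, 31 of 42 other large subunit factors, 9 of 16 RNA polymerase I genes, 10 of 14 exosome genes and 9 of 11 snoRNA hosts were lower, and 0 genes of these lists were higher by at least 2-fold in limma. At an unadjusted p under 0.05 without the minimum fold, 1 large subunit factor, 2 RNA polymerase I genes and 1 snoRNA host were higher, and 0 genes of the other 2 lists. Ribosomal proteins had 32 of 81 lower, and 19 under size factors, where 20.7% of all genes were lower. Their median was -0.91, beside -2.70 for the 33 members. For DTPA over 0 h, where 27.6% of all genes were lower and 15.7% higher, 34 of 39 small subunit factors, 33 of 42 large subunit factors, 9 of 16 RNA polymerase I genes and 12 of 14 exosome genes were lower. Of the snoRNA hosts 6 of 11 were lower and 1, Zfas1 at 1.61, was higher. Of the ribosomal proteins 7 of 81 (8.64%) were lower, with a median of -0.40 beside -2.82 for the 33 members. These counts share the 0 h library with those of the controls.

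The MYC network was listed because MYC is known to drive many ribosome assembly genes. Myc itself had 28.9, 31.2 and 31.6 TPM under DTPA and 15.0, 14.7 and 14.9 TPM in controls, against 474 TPM at 0 h. It was lower in controls than at 0 h, like most members, at a log2 fold change of -4.90 (limma adjusted p = 1.98e-07). Under DTPA Myc was higher than in controls at 0.99 (limma adjusted p = 4.6e-06). There, 16 of the 33 members were lower, against 36.4% of all genes. Only RNA was measured, and a link between Myc and the members was not tested in either comparison. Of 8 tested genes of this network, 3 were higher and 2 lower under DTPA (median 0.12), against 21.7% and 36.4% of all genes. The MYC antagonist Mxi1 was higher at 0.50, and Max, the dimer partner of MYC, was lower at -0.48, as was Mlxip at -0.39. For control over 0 h, 5 of 9 network genes were higher and 2 lower, against 15.1% and 24.3% of all genes. For DTPA over 0 h 4 were higher and 2 lower, against 15.7% and 27.6%.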

How the data were processed

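The deposited values are TPM per gene symbol, made by the authors, and each library sums to the same total. The submitters' processing notes name Trimmomatic 0.33, FastQC, HISAT2 2.1.0, featureCounts, edgeR and mm10. Per the labels, libraries came from the Illumina TruSeq stranded mRNA kit. Gene lengths, annotation and the strand setting of the counting are not given in the sources used here. A rise of abundant genes lowers the TPM of all others.

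Repeated symbols were summed. Tests used limma 3.58.1 in R 4.3.3 (eBayes with trend, two-sided, Benjamini-Hochberg over all tested genes) on log2(TPM + 1), a scale that understates the change of low genes. DTPA against control used the 6 libraries at 24 h and genes that reached 1 TPM in 3 or more of them. Both comparisons with 0 h came from 1 fit of 7 libraries, for genes whose mean reached 1 TPM in either group. Depth was estimated from the steps of low TPM values and GENCODE M21 exon lengths, and 98.8% to 99.1% of those values came within 0.1 of whole reads. The exon lengths of the submitters may differ, so no count test was run. Copies were sought with minimap2 2.31 (at least 90% identity over at least 200 bases). The fits were run on simulated data in which few genes changed, evenly in both directions, and the 0 h library varied like the others. That run cannot show how the fits behave when most genes change or the 0 h library varies otherwise.

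Members and lists were chosen with earlier results of these data known. All 33 members are named. Values in every library are given for the 12 with the largest change under DTPA, for those that moved against their role group, and for a few picked after their values were seen. In each list up to 4 called genes with the largest change are named, and Myc. A few genes that these lists and rules take are not reported here. Alternatives were other pseudocounts, filters, scalings and variance models, leaving out each replicate and a replicate block. The values showed no pairing by replicate number. Deviations of same-numbered libraries correlated at -0.0103, 0.0242 and -0.00964, and those of differently numbered ones at -0.0372 to 0.0455. These values cannot show whether the cultures were set up in pairs.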

Additional observations from a re-analysis of the deposited data

How the results depend on the processing

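Against 0 h, the fall of the members held under the alternatives run, with exceptions near the 2-fold limit: in controls Rrp1 was lost without globins in the total and under size factors, and Gnl3 under size factors. Under DTPA, Pes1 and Rrp1 were lost under size factors. With no minimum fold, controls had 5188 genes lower and 3675 higher, and DTPA cells 5594 lower and 3598 higher, each with 1 member higher (Nop10). The members' median for DTPA over 0 h was -2.60 with a pseudocount of 5, -2.73 without globins, -2.55 under size factors, -2.74 under quantile normalization and -2.87 to -2.77 without single replicates. For control over 0 h it was -2.48 with a pseudocount of 5, -2.64 without globins and -2.54 under size factors. The summed TPM under DTPA, in controls and at 0 h was 2195, 2463 and 10220 without globins, and 2139, 2272 and 8809 under size factors.

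For DTPA over control, 503 of 560 single-gene values in the alternatives kept direction and side of the threshold, 29 lost it, 8 gained it and 20 changed sign. Members called higher were 5 under size factors and under quantile normalization, against 28.3% and 28.6% of all genes. Without single replicates 1 to 4 were higher, with 1 left without DTPA replicate 3. The members' median was -0.07 under size factors and -0.06 under quantile normalization. Under size factors Npm1 was at 0.07, Wdr43 at 0.04, Nop14 at 0.04, Nop2 at 0.02 and Nop16 at 0.09. Under quantile normalization Ncl was at 0.02, Npm1 at 0.10, Wdr43 at 0.06, Nop14 at 0.08, Bysl at 0.03, Nop2 at 0.05, Nop16 at 0.11 and Rrp1 at 0.03. Nop16 was at 0.01 without globins. Without single replicates Npm1 ran between -0.12 and 0.02, Wdr43 between -0.12 and 0.00, Tsr1 between -0.12 and 0.12 and Nop16 between -0.15 and 0.14. None of these values was past the threshold, and the cause of each move was not tested. The replicate block gave 2274 genes higher and 3888 lower, with 2 members higher and 15 lower (Rrp1 and Rrs1 lost). The values showed no pairing by replicate number.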
